A study of Capra hircus with 2 samples.

Results

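The miR-17-92 and miR-106b-25 clusters are groups of miRNA hairpins cut from shared primary transcripts, with a further copy, miR-106a-363, on chromosome X. The 10 names followed here are miR-17, miR-18a, miR-19a, miR-19b, miR-20a, miR-92a, miR-106a, miR-106b, miR-93 and miR-25. Members were taken by name, with the species prefix, copy number and arm left aside, and reads were summed per name and arm. This gave 20 member arms of 1808 named arms in the series. Reads were found for all 20 in CD49f-positive cells and for 19 in CD49f-negative cells.

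The RNA came from primary testicular cells of the Saanen dairy goat, from 3 testes of 3 animals at the age of 5 months. The cells were freed with digestive enzymes and plated overnight, and those that had not attached were separated with magnetic beads into CD49f-positive and CD49f-negative fractions. CD49f is integrin alpha-6, by which spermatogonial stem cells are often enriched. Both groups share this treatment, and whether animals were pooled is not given in the sources used here. The series text speaks of triplicates, but each group has 1 small RNA library here. No difference below could be checked against replicates, and no p-value can be given.

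miRNAs guide repression of messenger RNAs mainly through the seed, bases 2 to 8 from the 5′ end. The miR-17-92 transcript is activated by MYC and E2F factors and is known for promoting proliferation and survival, in part by repressing the pro-apoptotic protein BIM. miR-106b-25 lies in an intron of MCM7, a DNA replication factor, and is transcribed with it. In mouse testis both clusters have been tied to the differentiation of spermatogonia, the dividing germ cells that precede meiosis.

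The members fall into 4 seed groups, shown by the known mature sequences the files list, 5′ to 3′ with the seed in capitals. The miR-17 seed group has 5 arms from all 3 clusters, the miR-18 group has 1, the miR-19 group has 2 and the miR-25/92 group has 2.
miR-17-5p: cAAAGTGCttacagtgcaggtagt
miR-20a-5p: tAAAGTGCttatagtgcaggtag
miR-106a-5p: aAAAGTGCttacagtgcaggta
miR-106b-5p: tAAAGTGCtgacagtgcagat
miR-93-5p: cAAAGTGCtgttcgtgcaggta
miR-18a-5p: tAAGGTGCatctagtgcagata
miR-19a-3p: tGTGCAAAtctatgcaaaactga
miR-19b-3p: tGTGCAAAtccatgcaaaactga
miR-92a-3p: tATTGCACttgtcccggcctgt
miR-25-3p: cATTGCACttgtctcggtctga
Counted from 1 at the 5′ end, miR-17-5p and miR-106a-5p differ by C1A over their 22 shared positions. miR-19a-3p and miR-19b-3p differ by T11C over 23. miR-92a-3p and miR-25-3p differ by T1C, C14T, C18T and T22A, all outside the seed.

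The deposited coordinates, whose genome build is not given in the sources used here, place the 6 hairpins of miR-17-92 on the plus strand of chromosome 12 within 786 bases, from 64371716 to 64372501. The order is miR-17, miR-18a, miR-19a, miR-20a, miR-19b and miR-92a. miR-106b, miR-93 and miR-25 lie on chromosome 25 within 496 bases, from 36111114 to 36111609. miR-106a and the second copies of miR-19b and miR-92a lie on chromosome X between 24618321 and 24619078, beside hairpins of the non-members miR-18b, miR-20b and miR-363. RefSeq names for the assembly ARS1.2 matched 10 of 10 members and put the 3 members of miR-106b-25 inside MCM7. They gave the chromosome of miR-106a as unknown and listed miR-19b and miR-92a on chromosome 12. The matched names thus placed no member on chromosome X. The hairpins of miR-106b-25 had a GC content of 60.0% to 64.6%, against 41.6% to 47.5% for miR-17-92.

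Reads of named miRNAs came to 8196507 in CD49f-positive and 3064462 in CD49f-negative cells, so the first library was 2.67 times deeper. miR-34b, miR-34c and miR-449a, abundant in meiotic and later germ cells, took 2.25% and 11.4% of these reads (CD49f-positive, CD49f-negative). By the rule given below, 6 of their 6 measured arms were lower in CD49f-positive cells, against 24.8% of all 298 miRNAs measured. miR-126, the endothelial marker, took 1.43% and 0.755%. The smooth muscle and myoid pair miR-143 and miR-145 took 22.6% and 18.9%, nearly all of it miR-143-3p, at a log2 ratio of 0.26. The other arms of this pair were split. miR-145-5p was called lower in CD49f-positive cells (log2 ratio -1.24), while miR-145-3p (0.56) and miR-143-5p (-0.76) were not called. The Sertoli marker miR-202 took 0.0320% and 0.0823%. The red blood cell list took 0.296% and 0.372%, the white blood cell list 0.0177% and 0.0217%, and the epithelial list 0.00299% and 0.00906%. Within the white blood cell list, log2 ratios were 0.59 for miR-155-5p, -0.79 for miR-142-5p and -0.96 for miR-142-3p. All 15 marker names had reads in both libraries. The marker arms at 0 were miR-141-5p in CD49f-positive cells and miR-144-5p, miR-223-5p and miR-200b-5p in CD49f-negative cells. The part of these cell types in the results below was not tested, and fewer cells of a type cannot be told apart from less RNA per cell.

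Together the member arms took 0.698% of the CD49f-positive reads (57210 reads) and 1.26% of the CD49f-negative reads (38504 reads). The ratio of these shares, positive over negative, was 1.80-fold lower, a log2 ratio of -0.85 (95% interval -0.87 to -0.83). Intervals of such ratios are exact conditional binomial intervals of the summed reads. They account for counting error alone: without molecular identifiers, PCR copies of 1 molecule count as separate reads.

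Of the 20 arms, 12 had at least 100 reads over both libraries. An arm was called lower or higher when its ratio also reached 2-fold and its interval excluded 1. By this rule 8 of 12 arms (66.7%) were lower in the CD49f-positive library, against 24.8% of all 298 miRNAs measured, and 0 were higher, against 2.01%. All 12 ratios were below 1, as were 74.8% of all ratios. The median log2 ratio was -1.28 for the members and -0.43 for all measured miRNAs. Members were chosen with earlier results of these data known, so these counts describe them and are no independent evidence.

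The number of calls follows the scaling. TMM scaling trims the most extreme and most abundant miRNAs before it sets the library sizes, and it added 0.44 to each log2 ratio. It left 2 of 12 arms lower, miR-17-5p and miR-93-5p, against 13.4% of all miRNAs, and 11 of 12 ratios below 1, against 49.0%. Median-of-ratios scaling added 0.60 and left 0 of 12 lower, against 9.4% of all. A read total without the 10 miRNAs of highest count added 0.31 and left 4 lower, against 17.4%. The members' median stayed below that of all measured miRNAs by the same distance in each case, since a scaling moves both alike. The arm that turned above 1 in these 3 scalings was miR-92a-3p.

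**Figure D1:**
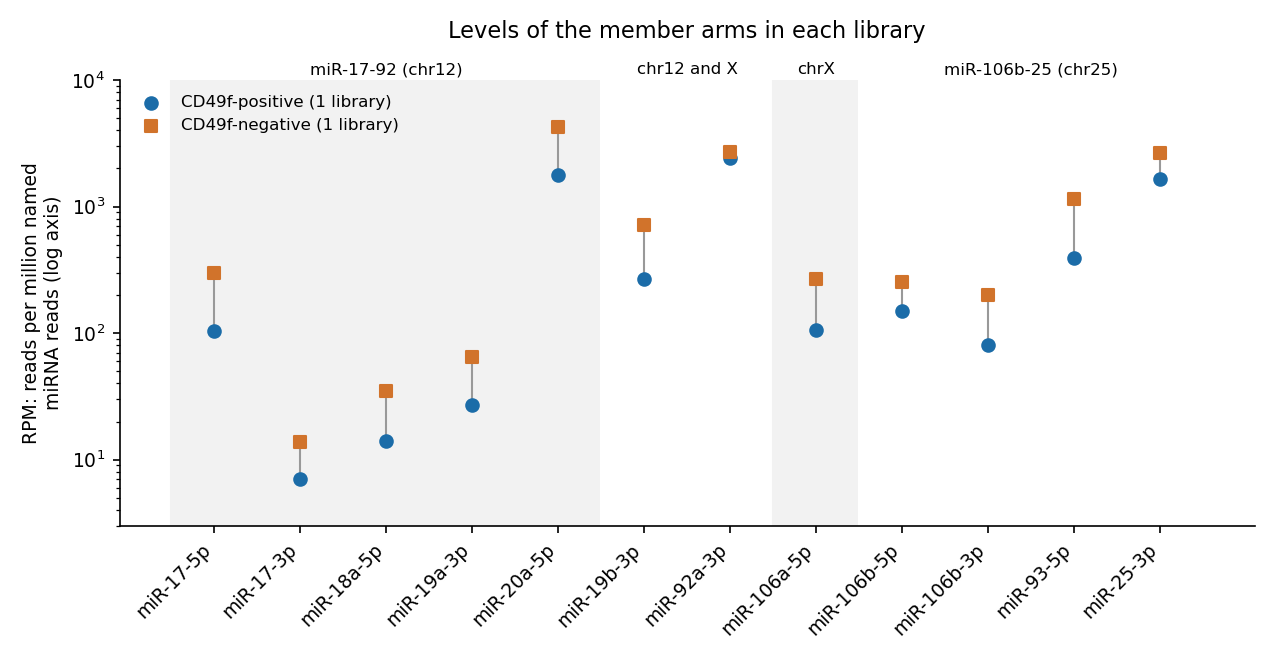
RPM, reads per 1000000 named miRNA reads (log axis), for the 12 member arms with at least 100 reads, in the CD49f-positive (circles) and CD49f-negative (squares) library, grouped by cluster. Every square lies above its circle, and the gap is narrowest for miR-92a-3p, at 2399 and 2698 RPM.

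Among the arms with the miR-17 seed, miR-20a-5p had the most reads. It had 14651 CD49f-positive and 12978 CD49f-negative reads, or 1788 and 4235 RPM (reads per 1000000 reads of named miRNAs), and ranked 38 and 23 among the named miRNAs. Its log2 ratio was -1.24 (-1.28 to -1.21), or -0.80 with TMM. miR-93-5p, the next most abundant, stood at 391 and 1144 RPM. It had the lowest ratio of the 12 arms, a log2 value of -1.55 (-1.62 to -1.48), and TMM gave -1.11.

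miR-17-5p, which gives the family its name, was far less abundant than miR-20a-5p from the same transcript, at 103 and 297 RPM. Its log2 ratio was -1.53 (-1.66 to -1.39), or -1.08 with TMM. miR-106a-5p, its near copy on chromosome X, stood at 107 and 267 RPM, with a log2 ratio of -1.33 (-1.46 to -1.19). These arms share reads. The most abundant sequence listed for both was cAAAGTGCttacagtgcaggtaga, with bases 2 to 8 in capitals. It was listed with 665 copies in each library, whatever their depths, and was listed at 1 mismatch for miR-17-5p and 2 for miR-106a-5p. With all its copies given to miR-17-5p, on the assumption of an equal split by the authors, the log2 ratios were -1.50 and -1.27, so both calls stood.

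miR-106b-5p was the arm of this seed with the smallest difference. It stood at 149 and 253 RPM, and its log2 ratio of -0.77 (-0.90 to -0.63) did not reach 2-fold. The 5 arms of the miR-17 seed together held 20792 and 18988 reads, at a log2 value of -1.29 (-1.32 to -1.26), or -0.84 with TMM.

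miR-18a-5p was among the least abundant measured members, at 14.1 and 34.6 RPM. Its log2 ratio was -1.30 with a wide interval (-1.68 to -0.90), from 115.5 and 106 reads, fractional because reads that match several hairpins were split. miR-19a-3p, whose seed group is known for its oncogenic part in B-cell tumours, held 223 and 200 reads, and its log2 ratio was -1.26 (-1.54 to -0.98). miR-19b-3p was more abundant, with 2177 and 2182 reads, and its log2 ratio was -1.42 (-1.51 to -1.34). Both miR-19 arms thus had nearly equal read numbers in libraries of unequal depth.

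Neither arm with the miR-25/92 seed reached 2-fold. miR-92a-3p, the most abundant member in the CD49f-positive library, had 19664 and 8269 reads, or 2399 and 2698 RPM, and ranked 29 and 32. Its log2 ratio of -0.17 (-0.21 to -0.13) turned to 0.28 with TMM. miR-25-3p had 13442 and 8064 reads, or 1640 and 2632 RPM. Its log2 ratio was -0.68 (-0.72 to -0.64), or -0.24 with TMM. The 2 arms together had a log2 ratio of -0.40 (-0.43 to -0.37), which became 0.045 (TMM) and 0.20 (median of ratios), so the direction of this seed group depends on the scaling.

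**Figure D2:**
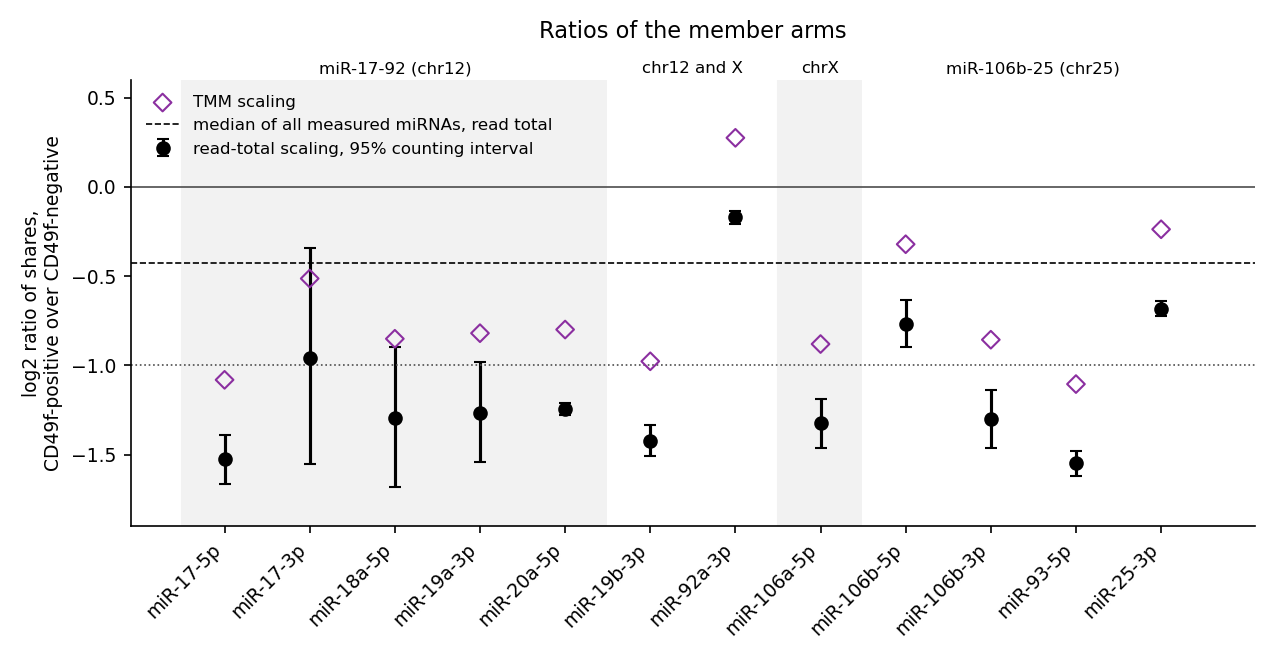
log2 ratios of shares, CD49f-positive over CD49f-negative, with 95% counting intervals (black circles) and with TMM scaling (open diamonds, no interval drawn), for the 12 measured member arms. The dotted line marks 2-fold lower, and the dashed line the median of all 298 miRNAs scaled by read total, -0.43. Among the circles, miR-92a-3p lies above the dashed line at -0.17, and the other 11 arms lie below it.

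Ratios between arms of 1 library do not depend on the scaling. In the miR-17-92 cluster miR-92a-3p had 1.34 reads per read of miR-20a-5p in CD49f-positive cells, against 0.637 in the other library. This is a log2 difference of 1.07 (95% large-sample interval of the odds ratio, as for the differences that follow, 1.02 to 1.13), and 1.09 over reads with no mismatch. Against miR-20a-5p, the differences of miR-18a-5p (-0.051, -0.43 to 0.34) and miR-19a-3p (-0.020, -0.30 to 0.26) lay within counting error. Over all reads, those of miR-17-5p (-0.28, -0.42 to -0.14) and miR-19b-3p (-0.18, -0.27 to -0.086) were beyond counting error. Both were far smaller than that of miR-92a-3p, the last hairpin of the cluster. With the most abundant listed sequence of each arm alone, miR-19b-3p lay further below miR-20a-5p, at log2 ratios of -1.87 and -1.21. The ratio of miR-92a-3p was -0.14 there. Part of the miR-92a-3p and miR-19b-3p reads can come from the chromosome X copies.

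The miR-106b-25 cluster also split. miR-25-3p had 4.20 reads per read of miR-93-5p in the CD49f-positive library against 2.30 in the CD49f-negative one, a log2 difference of 0.87 (0.79 to 0.95). miR-106b-5p had 0.381 and 0.221, a difference of 0.78 (0.64 to 0.93). miR-25-3p and miR-106b-5p, with 11.0 and 10.4 reads of the former per read of the latter, did not differ beyond counting error, at 0.084 (-0.053 to 0.22). So miR-93-5p differed from miR-25-3p and from miR-106b-5p, although it shares its seed with the latter. The other arm of that hairpin, miR-106b-3p, had a log2 ratio of -1.30, nearer to the -1.55 of miR-93-5p than to the -0.77 of miR-106b-5p. This order turned with the most abundant listed sequence of each arm alone. There miR-106b-3p stood at -1.06, nearer to miR-106b-5p (-0.78) than to miR-93-5p (-1.61).

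miR-106b was the member with substantial reads on both arms of its hairpin, printed here as deposited with the listed arms in capitals: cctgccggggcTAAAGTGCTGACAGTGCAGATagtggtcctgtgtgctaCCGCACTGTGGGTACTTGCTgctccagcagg. The 3p arm held 662 and 610 reads, and its log2 ratio was -1.30 (-1.46 to -1.14), which met the rule, while the 5p arm did not. The 3p arm took 35.2% of the hairpin's CD49f-positive reads (exact Clopper-Pearson interval 33.0 to 37.4) and 44.0% of its CD49f-negative reads (41.4 to 46.7). Over reads with no mismatch these shares were 40.2% and 52.2%. Counting the most abundant sequence of each arm alone gave 32.3% (28.4 to 36.5) and 36.8% (31.6 to 42.2), from 171 and 121 copies of the 3p sequence. These intervals overlap, so the arm difference was not beyond counting error there.

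In the other members 1 arm held nearly all reads. The lesser arm took 6.43% and 4.41% for miR-17 and 6.48% and 5.36% for miR-18a, and under 1 percent for the remaining 7 names. miR-17-3p, with 58 and 42 reads, stood exactly at the minimum of 100 and had a log2 ratio of -0.96 (-1.55 to -0.35). It includes a few reads named miR-17-2-3p that lie at the miR-106a hairpin or are unplaced, and without them its log2 ratio was -0.87. Its most abundant sequence alone, with 13 and 16 copies, gave -1.85 (-3.03 to -0.71), so its size is poorly fixed at this depth. The next arm below the minimum, miR-25-5p, had 36 and 16 reads. The 8 arms under the minimum had 1 to 36 CD49f-positive and 0 to 16 CD49f-negative reads, too few for a call.

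By genomic cluster, the members of miR-17-92 gave 27812 and 19779 reads, with log2 ratio -0.93 (-0.95 to -0.90). Those of miR-106b-25 had a log2 ratio of -0.90 (-0.93 to -0.87), from 18564 and 12970 reads, of which miR-25 gave 13474 and 8076. Those on chromosome X gave 10817 and 5745 reads, with log2 ratio -0.51 (-0.55 to -0.46), which became -0.061 (TMM) and 0.093 (median of ratios), so its direction depends on the scaling. The last value follows miR-92a-3p, which made up most of the reads counted there: 8859 and 3834. The mature miR-92a-3p and miR-19b-3p are alike at both loci, and the authors' split gave chromosome 12 54.9% and 53.6% of the miR-92a-3p reads and 50.2% and 50.0% of the miR-19b-3p reads. Output of the chromosome X copies therefore cannot be told apart from that of chromosome 12 for these arms.

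By seed, the make-up of the reads differed between the libraries. The miR-25/92 seed held 58.7% of the reads of the 4 groups in the first library (58.3 to 59.1) and 43.2% in the second (42.7 to 43.7), CD49f-positive before CD49f-negative. The miR-17 seed held 36.9% (36.5 to 37.3) and 50.2% (49.7 to 50.7). The miR-19 seed held 4.25% and 6.30%, and the miR-18 seed 0.205% and 0.280%. Within the miR-17 group miR-20a-5p took 70.5% and 68.3%, and miR-93-5p 15.4% and 18.5%. Within the miR-25/92 group miR-92a-3p took 59.4% (58.9 to 59.9) and 50.6% (49.9 to 51.4).

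**Figure D3:**
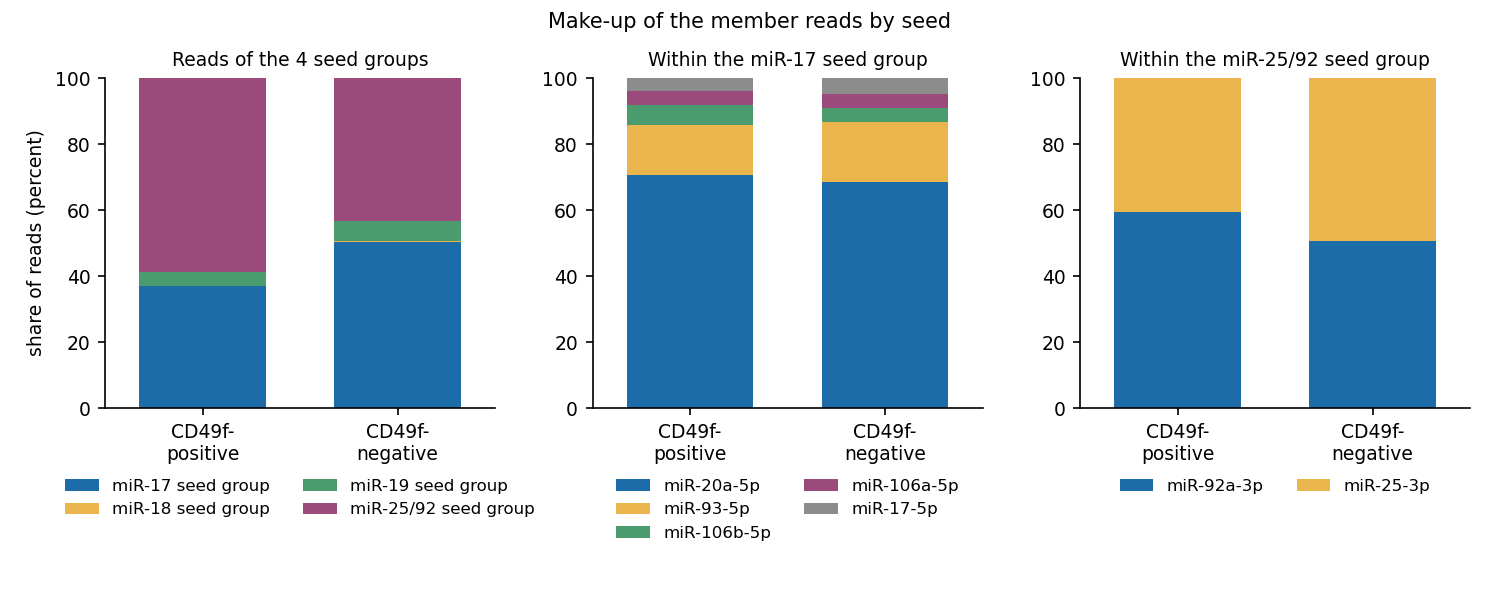
Stacked bars, in percent of reads, of the 4 seed groups (left) and of the arms within the miR-17 (middle) and miR-25/92 (right) seed groups, for the 1 library of each group. The miR-25/92 seed fills 58.7% of the CD49f-positive bar and 43.2% of the CD49f-negative bar. The miR-18 group, under 1 percent, is barely visible.

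The relatives outside the member list, miR-18b, miR-20b, miR-363, miR-92b, miR-32 and miR-367, had 10 arms with reads. Of these, 2 were measured, 1 lower and 0 higher, against 24.8% and 2.01% of all 298 miRNAs measured. The lower one was miR-32-5p, encoded away from these clusters, with the listed sequence tATTGCACattactaagttgc, bases 2 to 8 in capitals. It carries the same seed as miR-92a-3p. Its reads were 131 and 188, at a log2 ratio of -1.94 (-2.27 to -1.61), and TMM gave -1.49. Its log2 difference from miR-92a-3p was -1.77 (-2.09 to -1.45), so arms with this seed did not share 1 ratio. miR-92b-3p had 281 and 130 reads, at a log2 value of -0.31 (-0.61 to 0.0039). miR-20b-5p (26.3 and 33.7 reads) and miR-363-3p (67 and 31 reads), the chromosome X relatives with most reads, lay under the minimum.

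Reads with mismatches were part of every measured member. The share of reads with no mismatch was higher in the CD49f-positive library for 11 of 12 arms, as it was for 82.2% of all measured miRNAs. For miR-20a-5p it was 78.1% and 69.7%, for miR-92a-3p 70.7% and 62.3%, and for miR-25-3p 74.3% and 66.5%. The median gap was 6.61 percentage points for the members and 5.62 for all measured miRNAs. miR-106a-5p had the lowest shares, 11.2% and 9.29%, so its values rest mostly on reads that fit it imperfectly. Over reads with no mismatch alone the log2 ratios were -1.15 for miR-20a-5p, -1.50 for miR-93-5p, -0.60 for miR-25-3p and -0.060 for miR-92a-3p, and 7 of the 11 arms that still had 100 reads were lower, against 21.5% of the 242 miRNAs measured that way. miR-19a-3p lost its call there, at -0.98.

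**Figure D4:**
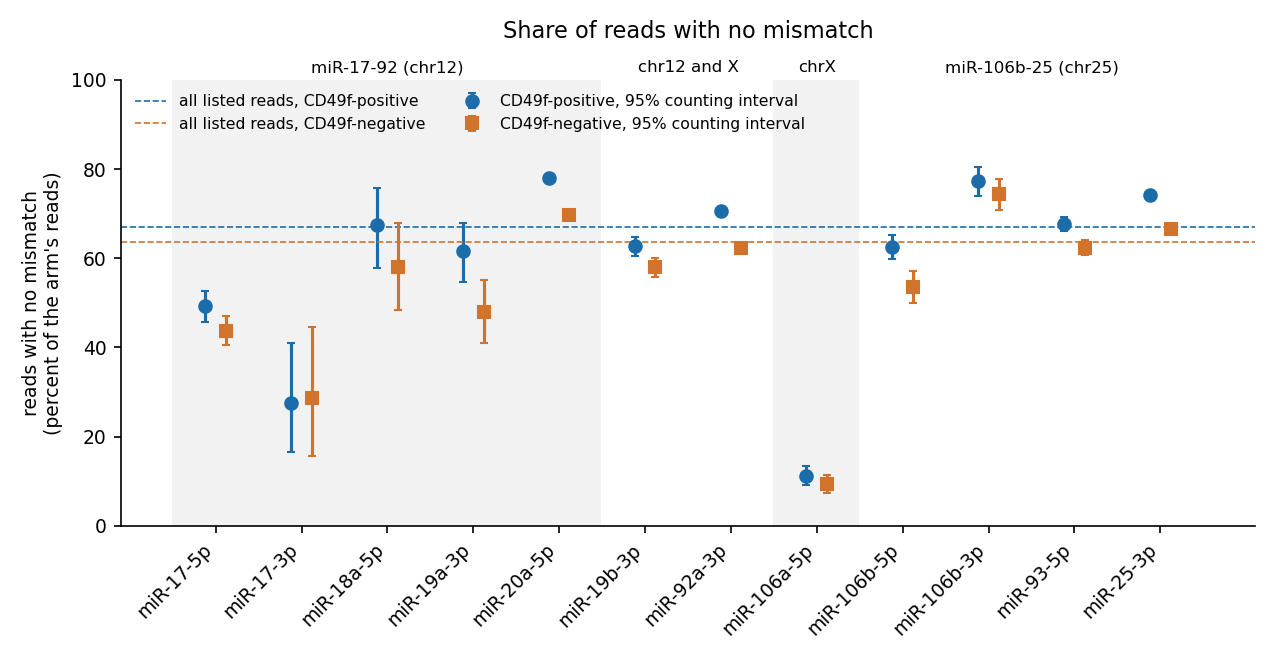
Percent of each member arm's reads with no mismatch, with exact 95% counting intervals, in the CD49f-positive (circles) and CD49f-negative (squares) library; dashed lines give all listed reads of each library, 67.0% and 63.7%. The circle lies above the square for 11 of 12 arms, and miR-106a-5p lies lowest at 11.2% and 9.29%.

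The most abundant listed sequence was the same in both libraries for 12 of 12 measured arms. Its weight varied between arms. It held 76.4% and 67.8% of the reads of miR-20a-5p and 58.0% and 53.6% of those of miR-25-3p, but 29.4% and 26.8% of those of miR-106b-5p. GC content of the mature sequence ran from 34.8% for miR-19a-3p to 63.6% for miR-106b-3p. It stood at 54.5% for miR-92a-3p and at 50.0% for miR-25-3p and for miR-93-5p, the arm with the lowest ratio. Across all 298 miRNAs, which share 2 libraries and are not independent, GC content and log2 ratio had a Spearman rho of -0.16 and a Pearson r of -0.17, given as a description.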

How the data were processed

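Per the labels' protocols, 1 TruSeq small RNA library per group was prepared. Per the file headers, the authors assigned reads to miRBase hairpins of mammals and placed them on goat chromosomes; which aligner, release and build served is not given in the sources used here. The deposited read values are expected counts for each arm, with reads that fit several hairpins split between them. Copies of each listed sequence are whole counts, and hairpin GC content is a percent, both per the file headers, and the headers record no normalization of them.

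Entries were summed per name and arm, with an arm missing from a name taken from both libraries together. Unnamed entries, 0.555% and 0.611% of listed reads, were left out. Ratios are shares of named reads with 0.5 reads added to each count. The rule for naming was that every member arm is accounted for, with fixed relatives and markers; miR-92-3p was chosen after its values were seen. Members and lists were chosen with earlier results of these data known. TMM (edgeR 4.0.16) and median-of-ratios (DESeq2 1.42.0) factors, used for scaling only, came from 592 names with at least 10 reads, rounded to whole numbers, in R 4.3.3. Sums and intervals were computed in SciPy 1.17.1, pandas 2.3.3 and numpy 2.4.6 under Python 3.11.15, and plots in matplotlib 3.10.9. Calls and intervals were tested on simulated counts that held counting error alone and were scaled by their known totals. That test cannot judge the choice of scaling, PCR copies or spread between replicates. Alternatives covered scaling, mismatches, hairpin placement, the listed sequence alone, the prior, the read minimum and the fold.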

Additional observations from a re-analysis of the deposited data

Results flagged for a closer look

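An entry named miR-92-3p, without a letter, lay outside the members and outside the comparisons above. It had 988 CD49f-positive and 501 CD49f-negative reads, more than the limit of 3 reads set by a count of 0. None of its reads was listed as free of mismatches, and it was not placed on the goat genome. Its listed CD49f-positive sequence, tATTGCACttgtcccggcctgtaa with bases 2 to 8 in capitals, holds the whole known miR-92a-3p sequence followed by 2 further bases. That sequence had 866 copies. The CD49f-negative library listed another sequence, with an undetermined base and only 10 copies, so the ratio of this entry may not compare the same sequences. Its log2 ratio was -0.44 (95% interval -0.60 to -0.28), against -0.17 for miR-92a-3p, and adding its reads to miR-92a-3p gave -0.18 (-0.22 to -0.15).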

How the results depend on the processing

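No paired analysis was possible because each group has 1 library, and no replicate could be left out. All 12 arms of the report kept ratios below 1 over reads with no mismatch, at known hairpins, with the listed sequence alone and with a prior of 5 reads, and 11 of 12 did under each scaling. The count of lower members changed from 8 to 2 with TMM, 0 with the median of ratios, 4 without the 10 most abundant miRNAs and 0 with a 4-fold rule (3.69% of all). With factors from names with at least 100 reads, chosen after seeing the data, it was 3 with TMM (16.4% of all) and 2 with the median of ratios (13.4%). Beside the share of all miRNAs, lower members were 7 of 11 measured over reads with no mismatch (21.5%), 8 of 11 at known hairpins (22.4%), 7 of 10 with the listed sequence alone (22.2%), 8 of 12 with a prior of 5 reads (25.2%), 9 of 16 with a minimum of 10 reads (26.9%) and 6 of 9 with a minimum of 1000 (18.6%). The shared-sequence (24.8%) and chromosome 12 (24.9%) alternatives, also chosen after seeing the data, left 8. miR-17-5p and miR-106a-5p list the same sequence, so with the listed sequence alone their 2 lower calls rest on the same copies. No alternative gave a higher member. The members' median was -0.84 (TMM), -0.68 (median of ratios) and -0.85 with the latter's factors from names with at least 100 reads.

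Under the 3 scalings (TMM, median of ratios, total without the 10 most abundant), in that order, log2 ratios were -0.48, -0.33 and -0.62 for miR-17-92, -0.061, 0.093 and -0.20 for miR-106a-363, and -0.46, -0.30 and -0.60 for miR-106b-25. They were -0.84, -0.69 and -0.98 for the miR-17 seed, -0.96, -0.81 and -1.10 for the miR-19 seed, and 0.045, 0.20 and -0.094 for the miR-25/92 seed. The miR-18 seed moved to -0.85 (TMM) and -0.70 (median of ratios). Over reads with no mismatch the values were -0.84, -0.30 and -0.82 for the 3 clusters in the same order, -1.19 for the miR-17 seed and -0.31 for the miR-25/92 seed. The listed sequence alone gave -0.84 for miR-17-92, -0.40 for miR-106a-363 and -1.84 for the miR-19 seed, and the cause was not tested. All copies of the miR-92a-3p and miR-19b-3p sequences, and of the sequence common to miR-17 and miR-106a, were counted in both clusters. The cluster values with the listed sequence alone are therefore not separate measures of each cluster. Most copies counted for miR-106a-363 were of miR-92a-3p, with 11537 in the CD49f-positive and 4323 in the CD49f-negative library.

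The share of miR-106b reads on the 3p arm was 40.2% and 52.2% (CD49f-positive, CD49f-negative) over reads with no mismatch. With the listed sequence alone it was 32.3% (28.4 to 36.5) and 36.8% (31.6 to 42.2), with overlapping intervals. miR-20a-5p took 76.9% and 74.6% of its seed group over reads with no mismatch and 76.5% and 72.4% with the listed sequence alone. The latter shares count the sequence common to miR-17-5p and miR-106a-5p for both arms, which lowers them. miR-92a-3p took 58.2% and 49.0% of its group over reads with no mismatch. Depth limits miR-18a-5p and miR-17-3p most, since their intervals span over 0.7 on the log2 scale.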
